A study of Mus musculus with 4 samples.

Results

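The miR-181 family is described here in the small RNA of exosomes released by mouse adipose tissue. Its members were taken as the rows of the deposited table whose miRNA name, without the suffixes the software adds, was one of 7 fixed names, with each sequence counted once. All 7 were found, among 697 sequences with a mouse miRNA name and 1482 listed sequences in all. They are the 5p strands mmu-miR-181a-5p, mmu-miR-181b-5p, mmu-miR-181c-5p and mmu-miR-181d-5p and the 3p strands mmu-miR-181a-1-3p, mmu-miR-181a-2-3p and mmu-miR-181c-3p. The exosomes came from minced pieces of visceral white adipose tissue (vWAT-Exos, WAT in the labels) or brown adipose tissue (BAT-Exos) kept in culture. The donors were wild-type C57BL/6 (B6) mice, given in the labels as 6 weeks of age, on a high-fat diet (HFD) or a low-fat diet (LFD) for 4 months. Each diet in each depot gave 1 library, 4 in all, and the sources used here do not give whether a library pools several mice. Where 4 values of one quantity follow each other, their order is vWAT-Exos on LFD, then on HFD, and BAT-Exos on LFD, then on HFD. With 1 library per condition no difference below has a replicate check, and none was tested as an effect of diet or depot.

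miRNAs are short RNAs that guide Argonaute proteins to messenger RNAs, mostly through the seed, bases 2 to 8 of the miRNA, and lower the output of those messages. A hairpin precursor is cut into a duplex, of which one strand (the guide) is usually kept and the other (the passenger) is usually degraded. In the miR-181 family the 5p strand is the usual guide. The family is best known from lymphocytes, where mouse miR-181a raises the sensitivity of T cells to antigen by repressing phosphatases of the receptor pathway. In endothelium, miR-181b dampens NF-kappaB signalling by repressing an importin, and in white fat of mice the family has been linked to insulin sensitivity and tissue inflammation.

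The mature sequences are shown because they determine which members can be told apart and which share a seed. All 7 names matched a mature sequence of RefSeq (GRCm38.p6), printed 5′ to 3′ with the seed in capitals.
miR-181a-5p: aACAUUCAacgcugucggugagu
miR-181b-5p: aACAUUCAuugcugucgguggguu
miR-181c-5p: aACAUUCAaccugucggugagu
miR-181d-5p: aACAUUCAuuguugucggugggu
miR-181a-1-3p: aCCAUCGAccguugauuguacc
miR-181a-2-3p: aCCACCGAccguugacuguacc
miR-181c-3p: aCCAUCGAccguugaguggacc

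The 4 guide strands share one seed, and no other mouse-named sequence in the table carried it at bases 2 to 8. Of the passenger strands, miR-181a-1-3p and miR-181c-3p share a seed with each other, and miR-181a-2-3p differs from miR-181a-1-3p within it by the substitution U5C, counted from the 5′ end. Outside the seed, miR-181a-5p and miR-181c-5p are 1 edit apart, a single deleted base, and miR-181b-5p and miR-181d-5p differ by C12U and by 1 base of length. The sequence listed in the table equalled the RefSeq one for 4 members and was shorter at the 3′ end for the other 3, by 3 bases for miR-181b-5p and by 1 base for miR-181a-2-3p and miR-181c-3p. The sources used here do not say whether a listed value sums several length variants.

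The 6 precursors lie as 3 pairs. Mir181a-1 (chr1:137966455-137966541, plus strand) and Mir181b-1 (chr1:137966639-137966718) are 97 bases apart, in an intron of the noncoding transcript Gm4258 and overlapping an exon of the lincRNA A430106G13Rik, both on the same strand. Mir181a-2 (chr2:38852735-38852810, plus strand) and Mir181b-2 (chr2:38853830-38853918) are 1019 bases apart and lie opposite an intron of Nr6a1, a gene of an orphan nuclear receptor. Mir181c (chr8:84178873-84178961, minus strand) and Mir181d (chr8:84178716-84178787) are 85 bases apart, in an intron of Nanos3, a germ cell gene, on its own strand. These positions come from the annotation of GRCm38 and not from the deposited table. Reads of miR-181a-5p and of miR-181b-5p can come from either of their precursors, on chromosomes 1 and 2, while each 3p member comes from 1 precursor.

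Values are the authors' norm values, given in the table as normalized counts, and their scaling is not stated in the labels or the study's methods. Library totals were 2.59e+06, 2.84e+06, 5.65e+06 and 5.83e+06. The worth of 1 read, inferred from read numbers that close the names of predicted entries, was 1.36, 2.37, 0.825 and 0.706, which rested on 2, 3, 127 and 100 entries and is therefore least secure in vWAT-Exos. The libraries would then hold between 1.20e+06 and 8.27e+06 reads. All intervals below are 95% intervals for counting error in these approximate reads, exact unless a method is named, and leave out variation between mice, preparations and amplified copies. The depots stood apart in their known miRNAs. All 5 brown fat miRNAs listed were at least 2-fold lower in vWAT-Exos than in BAT-Exos on either diet. Of the 4 miRNAs from Hox loci, 2 were at least 2-fold higher in vWAT-Exos on LFD, and on HFD 2 were higher and 1 lower. Of the most abundant pair, miR-10b-5p had 87706, 107379, 109329 and 131716, below 2-fold between depots, and miR-196b-5p had 1947, 2005, 14.9 and 6.35. HFD BAT-Exos also stood apart in muscle miRNAs, whose 6 listed members summed to 22933 against 4193 in LFD BAT-Exos.

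miR-181a-5p was the main member. Its norm value in vWAT-Exos was 9102 on LFD and 14411 on HFD, and in BAT-Exos it was 3923 on LFD and 2078 on HFD, so that it was highest in vWAT-Exos on HFD and lowest in BAT-Exos on HFD. Among the 697 mouse sequences it ranked 49, 37, 77 and 108 in these libraries. The 4 guide strands together had 10905, 17216, 5255 and 2792, which was 0.422%, 0.606%, 0.0930% and 0.0479% of the norm total of each library. The family was therefore a minor part of the exosomal miRNA in every library.

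miR-181b-5p had norm values of 1040, 2020, 895 and 477. It followed the order of miR-181a-5p, and in both orders each neighbouring pair of libraries was apart beyond counting error, although LFD vWAT-Exos exceeded LFD BAT-Exos by only 1.16-fold (interval 1.06 to 1.28) for miR-181b-5p. miR-181c-5p, which in rat heart has been found in mitochondria, had 552, 476, 230 and 106. Here both vWAT-Exos libraries were again above both BAT-Exos libraries, but LFD and HFD vWAT-Exos were not apart beyond counting error (1.16-fold higher on LFD, 0.975 to 1.38). miR-181d-5p had 211, 309, 207 and 131. It was highest in HFD vWAT-Exos, and LFD vWAT-Exos and LFD BAT-Exos were not apart (1.02-fold, 0.829 to 1.25). In 3 libraries the values of miR-181b-5p and miR-181d-5p did not come to whole reads (852.3 and 130.3 in HFD vWAT-Exos), and in the same number of libraries those of miR-181a-5p came to a fractional count, such as 6683.5 in LFD vWAT-Exos. Whether reads were divided between similar sequences was not tested.

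The passenger strands were far lower. miR-181a-1-3p had norm values of 161, 256, 68.5 and 5.64, or about 118, 108, 83 and 8 reads. It kept the order of miR-181a-5p with a much wider range, and HFD BAT-Exos stood far below the other libraries. miR-181c-3p had 49.0, 52.1, 33.0 and 19.1, and only the step from LFD to HFD BAT-Exos exceeded counting error between neighbours. miR-181a-2-3p had 19.1, 16.6, 17.3 and 8.47, on 7 to 21 reads, and no neighbouring libraries were apart. At this depth no difference in miR-181a-2-3p between neighbouring libraries was detectable in the values as deposited.

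**Figure D1:**
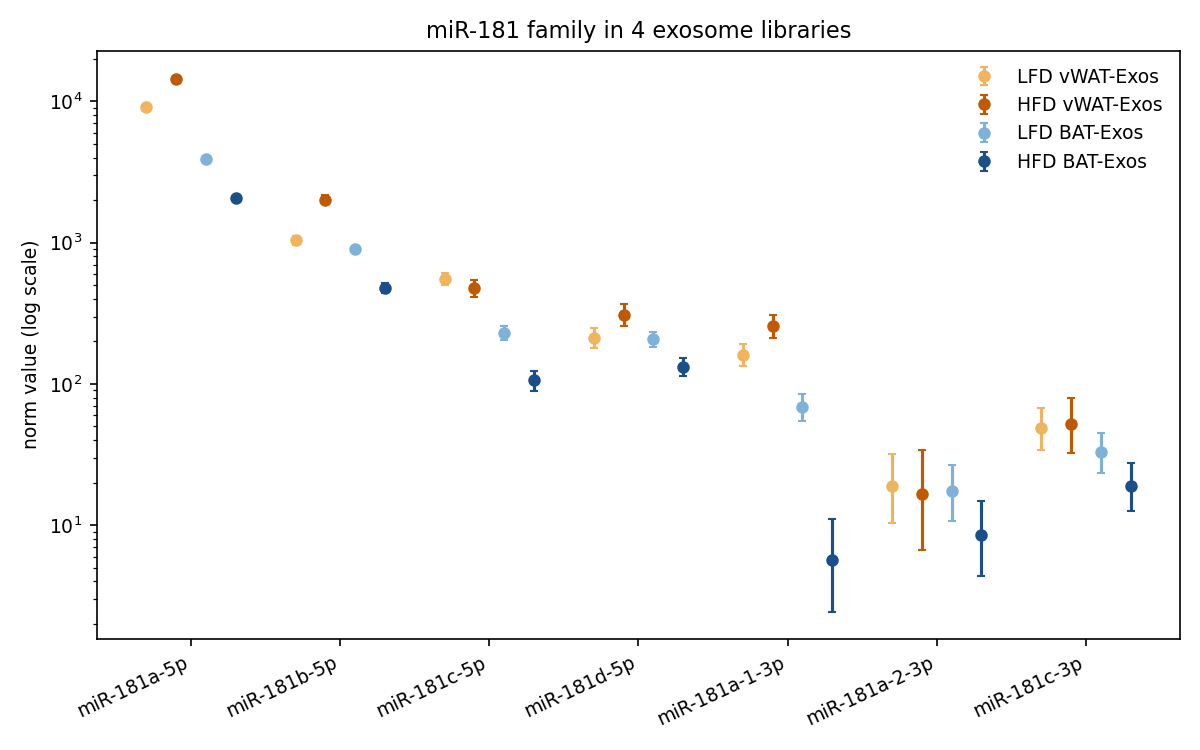
Norm value (log axis) of each of the 7 members in the 4 libraries, 1 point per library, with bars for the 95% counting interval of approximate reads. The 4 guide strands on the left span 106 to 14411, and miR-181a-1-3p falls to 5.64 in HFD BAT-Exos.

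The effect of diet on vWAT-Exos cargo was the first comparison of the design. In vWAT-Exos, miR-181a-5p was 1.58-fold higher in the HFD library (1.53 to 1.64), miR-181b-5p 1.94-fold higher (1.76 to 2.14) and miR-181d-5p 1.46-fold higher (1.15 to 1.85). miR-181c-5p was 1.16-fold lower, with an interval that included no difference (0.975 to 1.38). The passenger strand miR-181a-1-3p was 1.59-fold higher (1.22 to 2.09), close to the ratio of its guide strand. For miR-181a-2-3p (1.15-fold lower) and miR-181c-3p (1.06-fold higher, which turned to below 1 on scaling to library totals) the interval included no difference. Taking a difference of at least 2-fold and requiring that one of the libraries reach a norm value of 100, 0 of the 5 members that reached 100 were called, against 10.2% of the 283 mouse sequences that reached it. miR-181b-5p lay just under that fold and was 2.01-fold higher under median-of-ratios scaling. The median log2 ratio of all 7 members, those below 100 included, was 0.55, and that of the 283 sequences at 100 or more was 0.04. Of the calls over all sequences 55.2% were upward, a share that was 32.5% on scaling to library totals and 66.7% under median-of-ratios scaling. None of the 7 leukocyte miRNAs listed differed by 2-fold between these libraries (summed level 70417 on LFD and 71193 on HFD, none at 0), and the same held for the 4 endothelial ones (45665 and 31210).

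In BAT-Exos all 7 members had lower values on HFD. miR-181a-5p was 1.89-fold lower (1.80 to 1.98), miR-181b-5p 1.88-fold lower (1.70 to 2.07), miR-181c-5p 2.18-fold lower (1.78 to 2.67) and miR-181d-5p 1.58-fold lower (1.30 to 1.92). The folds of the guide strands ran from 1.58 to 2.18, and their 4 intervals overlapped, which does not show equal folds. Of the 4 members that reached a norm value of 100, 1 was called lower, miR-181c-5p, against 12.4% of 283 mouse sequences. The log2 ratios of all 7 members, those below 100 included, had a median of -0.92, beside 0.07 for the 283 sequences at 100 or more. miR-181c-3p was 1.73-fold lower (1.04 to 2.94), and miR-181a-2-3p was 2.05-fold lower with an interval that included no difference (0.962 to 4.56).

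miR-181a-1-3p was the exception in size. It was 12.1-fold lower in the HFD BAT-Exos library (5.88 to 29.0), although below a norm value of 100 in both BAT-Exos libraries, and its log2 ratio of -3.39 was position 15 from the lowest among 456 mouse sequences at 10 or more in either library. Its guide, which also draws on Mir181a-2, was 1.89-fold lower between the same libraries. The value on HFD rests on about 8 reads. In that library the muscle miRNAs were also higher, each of the 6 by 2-fold or more, and their median log2 ratio was 2.61. The leukocyte miRNAs summed to 25142 on LFD and 19602 on HFD, and none was at 0. Those at least 2-fold lower, 2 of 7, were both strands of miR-142a. The log2 ratios of the leukocyte miRNAs ran from -2.67 to 0.73, so the list did not move as one. Their median log2 ratio was -0.76, and the 4 endothelial miRNAs, of which none differed by 2-fold, summed to 35761 and 48294. The part of muscle, leukocyte or endothelial material in the miR-181 values was not tested. In exosomes of a whole tissue piece, fewer vesicles from one cell type and less of a miRNA per vesicle cannot be told apart.

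The diet ratio of the summed guide strands thus had opposite directions in the depots. On the log2 scale this HFD to LFD ratio was 0.66 in vWAT-Exos and -0.91 in BAT-Exos, a difference of 1.57. By member this difference was 1.58 for miR-181a-5p, 1.86 for miR-181b-5p, 0.90 for miR-181c-5p, 1.21 for miR-181d-5p and 4.06 for miR-181a-1-3p. It was above 0 for all 7 members, down to 0.76 for miR-181a-2-3p. Over the 320 mouse sequences at 100 or more in a library, the median difference was -0.05 with quartiles of -0.69 and 0.69, and 23.8% of them were higher on HFD in vWAT-Exos and lower on HFD in BAT-Exos. Some members come from the same precursor, and whether reads were divided between similar sequences was not tested. The members are therefore not treated as independent of each other.

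**Figure D2:**
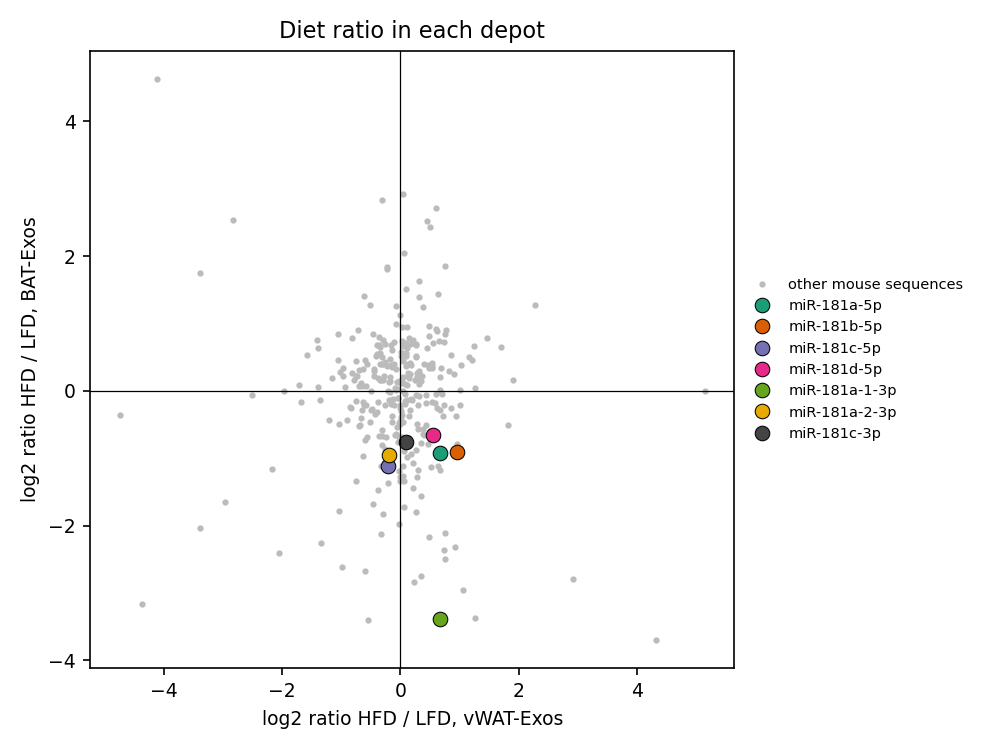
Log2 ratio of norm values (plus 1) on HFD against LFD in vWAT-Exos (horizontal axis) and in BAT-Exos (vertical axis), with grey points for mouse sequences at 100 or more in a library and coloured points for the 7 members. Every member lies below 0 on the vertical axis, from -0.66 to -3.39, and 5 of the 7 lie above 0 on the horizontal axis, miR-181c-3p among them at 0.09, which turned to -0.05 on scaling to library totals.

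Between depots on LFD, the members as deposited fell into those higher in vWAT-Exos and those at similar levels. miR-181a-5p was 2.32-fold higher in vWAT-Exos (2.23 to 2.41), miR-181c-5p 2.40-fold higher (2.05 to 2.80) and miR-181a-1-3p 2.35-fold higher (1.76 to 3.14). As deposited, miR-181b-5p and miR-181d-5p lay near parity, at 1.16-fold and 1.02-fold, and the intervals of miR-181a-2-3p and miR-181c-3p included no difference. Of the 5 members at 100 or more, 3 were called higher in vWAT-Exos and 0 lower, against 23.4% of 303 mouse sequences called higher. miR-181a-1-3p passed the floor only through vWAT-Exos. When both libraries had to reach 100, 2 members were called, against 45 of 235 mouse sequences called higher. The neighbours on chromosome 8, miR-181c-5p and miR-181d-5p, thus differed in this ratio, with intervals that did not overlap.

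On HFD the depots were further apart. miR-181a-5p was 6.94-fold higher in vWAT-Exos (6.64 to 7.25), miR-181b-5p 4.23-fold higher (3.82 to 4.69), miR-181c-5p 4.50-fold higher (3.62 to 5.60) and miR-181d-5p 2.36-fold higher (1.86 to 2.95). miR-181a-1-3p was 45.3-fold higher, with a wide interval of 22.2 to 108 from the few reads in HFD BAT-Exos, and was position 16 from the highest of 483 sequences at 10 or more. All 5 members at 100 or more were called higher, against 30.6% of 307 mouse sequences. miR-181a-1-3p reached 100 only in vWAT-Exos, the library where it was high. When both libraries had to reach 100, 4 members were called, against 55 of 221 mouse sequences called higher. miR-181c-3p, below 100 in both libraries, was 2.74-fold higher (1.49 to 4.99), and as deposited the interval of miR-181a-2-3p included no difference.

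The size of the depot differences depended on the scaling. Library totals include the brown fat miRNA miR-378a-3p, which had 71290, 113025, 2.11e+06 and 2.08e+06, so scaling to totals depends in large part on its level. For the summed guide strands, vWAT-Exos exceeded BAT-Exos by 2.07-fold on LFD and 6.17-fold on HFD as deposited, and by 4.53-fold and 12.7-fold when each library was scaled to its total. On LFD that scaling also took miR-181b-5p to 2.54-fold and miR-181d-5p to 2.22-fold higher in vWAT-Exos, past the fold that called members. miR-181a-2-3p and miR-181c-3p came to 2.40-fold and 3.25-fold on LFD, outside their counting intervals as deposited, and miR-181a-2-3p to 4.02-fold on HFD. Scaling to totals moved the median log2 ratio of all sequences from -0.19 to 1.12 on LFD and from -0.27 to 0.91 on HFD, and the upward share of their calls from 44.4% to 81.2% and from 48.7% to 71.0%. Relative to the median of all sequences, the guide strands were higher in vWAT-Exos by 1.24 on LFD and 2.90 on HFD (log2) as deposited, and by 1.06 and 2.75 with that scaling. Most of the leukocyte miRNAs were higher in vWAT-Exos, as the guide strands were. On LFD 5 of 7 were at least 2-fold higher in vWAT-Exos and on HFD 4 of 7, none was 2-fold lower and none was at 0. Of the most abundant pair, miR-146a-5p had 27037, 24423, 19982 and 15455, and miR-142a-5p had 20409, 25079, 1469 and 650, so that the list did not move as one. On LFD miR-223-3p was lower in vWAT-Exos, with a log2 ratio of -0.65. The contribution of leukocytes to the miR-181 values was not tested.

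**Figure D3:**
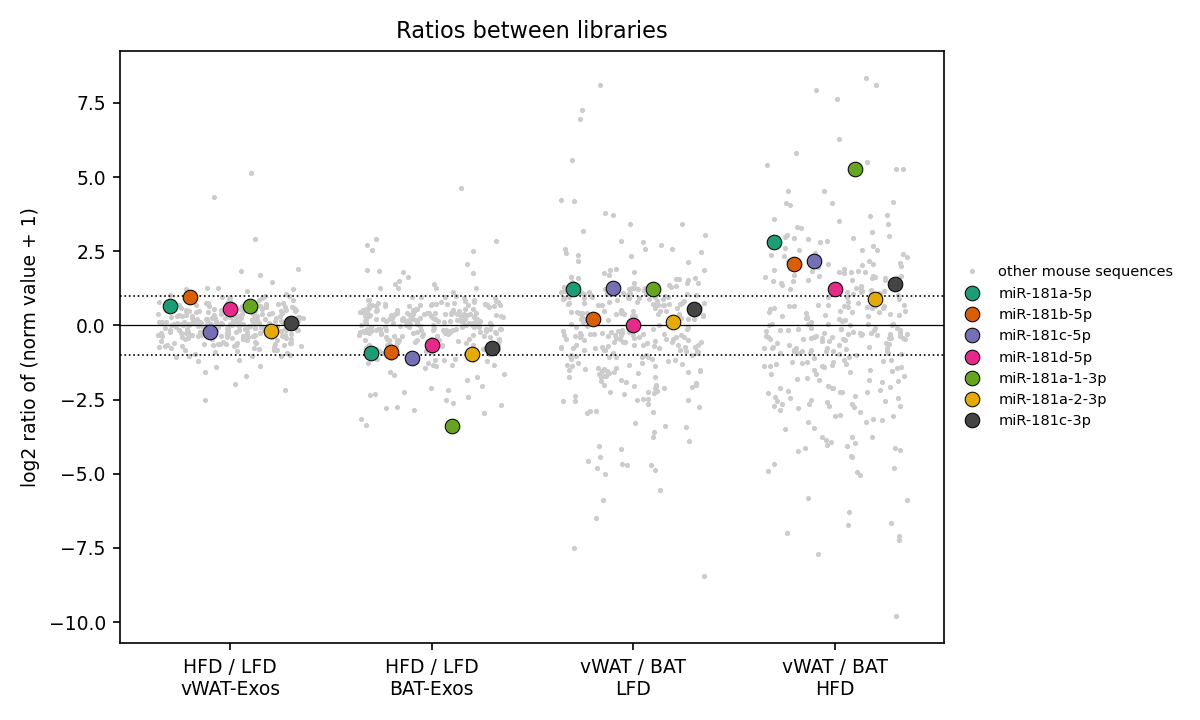
Log2 ratio of norm values (plus 1) in the 4 comparisons, with coloured points for the 7 members, grey points for mouse sequences at 100 or more in one of the compared libraries, and dotted lines at a 2-fold difference. The members lie between -0.21 and 0.96 for diet in vWAT-Exos, below 0 for diet in BAT-Exos, and between 0.89 and 5.27 for depot on HFD.

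The make-up of the family within a library, which no scaling of whole libraries changes, differed between depots for 3 of the guide strands. miR-181a-5p made up 83.5% of the guide strands in LFD vWAT-Exos (Wilson interval 82.6 to 84.3) and 83.7% in HFD vWAT-Exos (82.8 to 84.5), against 74.6% (73.6 to 75.7) and 74.4% (73.0 to 75.8) in LFD and HFD BAT-Exos. miR-181b-5p took 9.54%, 11.7%, 17.0% and 17.1%, and miR-181d-5p took 1.94%, 1.79%, 3.95% and 4.69%, so both had larger shares in BAT-Exos. Within vWAT-Exos the share of miR-181b-5p was larger on HFD (11.0 to 12.5) than on LFD (8.92 to 10.2). The share of miR-181c-5p was smaller on HFD there, with 5.06% on LFD (4.60 to 5.56) and 2.77% on HFD (2.41 to 3.17), and it was 4.38% and 3.79% of the guide strands from brown fat, so that on HFD its intervals also separated the depots (3.24 to 4.43 in BAT-Exos).

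Each 3p strand can be assigned to a single precursor. The 3p total here sums the 3p members only and leaves out miR-181b-1-3p, listed at 13.6 in LFD vWAT-Exos and at 0 in the other libraries. miR-181a-1-3p, from chromosome 1, made up 70.2%, 78.8%, 57.6% and 17.0% of the 3p total. It was the leading 3p strand in every library but HFD BAT-Exos, where its interval of 8.89 to 30.1 lay below those of the other 3 libraries and miR-181c-3p led with 57.4%. Against miR-181a-2-3p, from chromosome 2, the ratio in vWAT-Exos was 8.43 on LFD (4.83 to 15.9) and 15.4 on HFD (7.24 to 39.3), and on LFD it was 3.95 in BAT-Exos (2.43 to 6.72). In HFD BAT-Exos this ratio was 0.667, and its interval of 0.236 to 1.77 lay below the other 3. A 3p level depends on how much of each strand is kept as well as on the precursor, so these ratios are not shares of transcription.

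**Figure D4:**
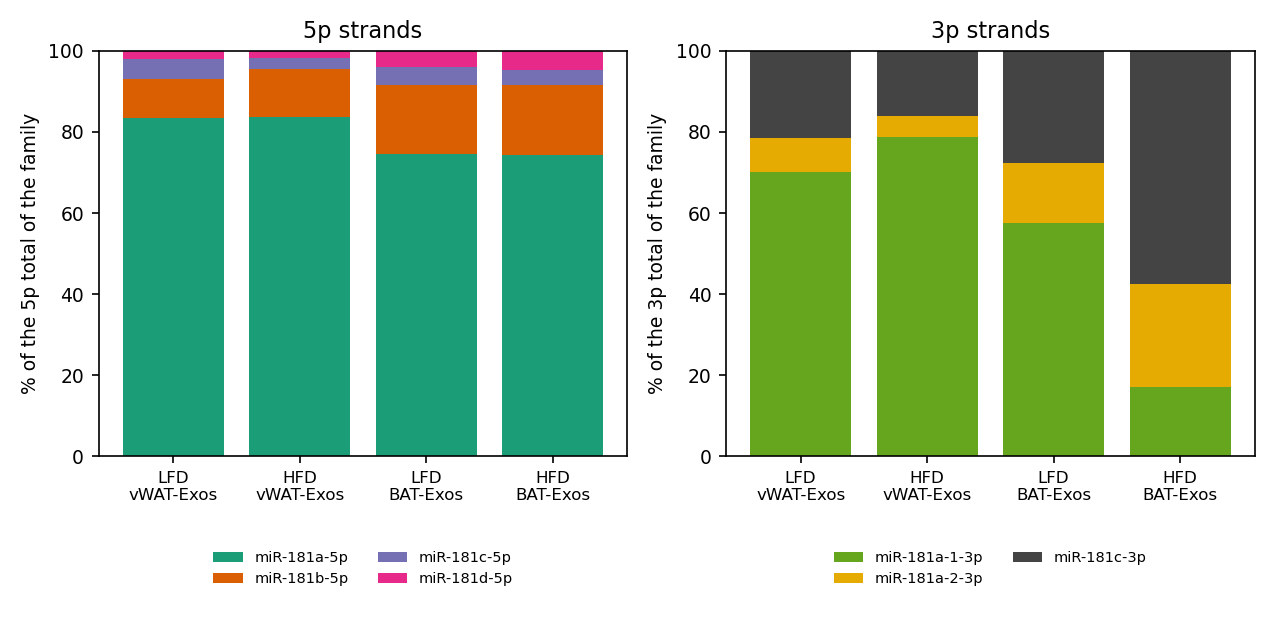
Share of each member in the summed norm value of the 5p members (left) and of the 3p members (right) in each library, in percent. miR-181b-1-3p, which is not among the members, is left out. miR-181a-5p takes between 74.4% and 83.7% of the 5p strands, and miR-181a-1-3p falls to 17.0% of the 3p strands in HFD BAT-Exos.

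The strand ratio was compared within each library, where scaling cancels. miR-181a-5p exceeded the sum of its 2 passenger strands by 50.6-fold (42.6 to 60.6) and 52.9-fold (44.0 to 64.2) in vWAT-Exos on LFD and then HFD, and by 45.7-fold (37.6 to 56.1) in BAT-Exos on LFD. These 3 libraries were not apart. In HFD BAT-Exos the ratio was 147-fold (95.1 to 241), above the intervals of the other 3. Its 3p side there rests on about 8 reads of miR-181a-1-3p and 12 of miR-181a-2-3p. The same 8 reads underlie the diet fold, depot fold and 3p share of miR-181a-1-3p in that library, so these are not separate observations. For miR-181c the ratio of 5p to 3p was 11.2 (7.99 to 16.3), 9.14 (5.87 to 14.9), 6.97 (4.99 to 9.98) and 5.56 (3.67 to 8.71). The values fell in this order, and their intervals overlapped, which does not show equal ratios. The miR-181c ratio was lowest in HFD BAT-Exos and so was not raised there as that of miR-181a was. The passenger strand was a larger part of the miR-181c pair (8.16% to 15.3%) than of miR-181a (0.675% to 2.14%) in every library.

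**Figure D5:**
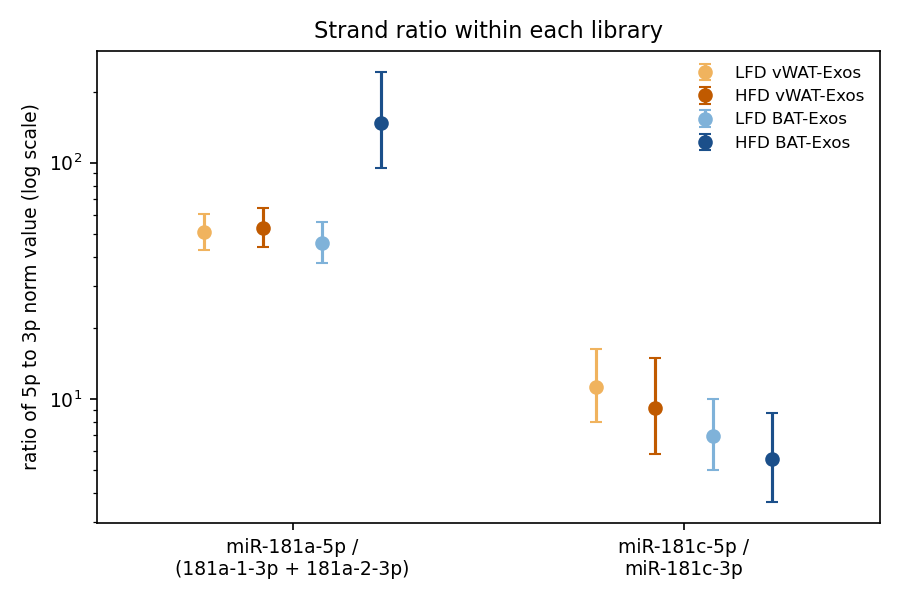
Ratio of 5p to 3p norm value (log axis) for miR-181a and miR-181c in each library, with bars for the 95% counting interval. The miR-181a ratio is 45.7 to 52.9 in 3 libraries and 147 in HFD BAT-Exos, and the miR-181c ratios lie between 5.56 and 11.2.

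The miRNAs nearest to the profile of the summed guide strands were ranked by Euclidean distance of log2 values centred on their mean over the 4 libraries, among 315 mouse sequences outside the family at 100 or more in a library. The nearest was miR-26a-2-3p, a passenger strand, at a distance of 0.32, with norm values of 113, 175, 47.0 and 21.2. It was followed by let-7g-5p (distance 0.36), miR-337-5p (0.36), let-7f-5p (0.42) and miR-199b-5p (0.51). In all 5 the order of the libraries was that of miR-181a-5p, which their selection by closeness to the summed guide strands makes likely. Of the family's own members miR-181a-5p, which dominates the sum, was at 0.17, miR-181c-5p at 0.64, miR-181b-5p at 0.72, miR-181d-5p at 1.23 and miR-181a-1-3p at 2.25, so that several miRNAs of other families lay nearer to the sum than most members did. Distances over 4 libraries describe these libraries only.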

How the data were processed

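Small RNA of exosomes was sequenced by the authors on an Illumina HiSeq instrument, and reads were cleaned of adapter dimers, low complexity sequence, common RNA families and repeats with ACGT101-miR. The deposited table gives a normalized signal (norm value) for each entry and library. The sources used here do not say how it was scaled. The labels give the human build GRCh38 although the samples are from mouse. Raw reads were not used. Each sequence was taken once. The value of 1 read was the commonest ratio of norm value to the number ending the name of a predicted entry listed in a single library, and of tied ratios the larger. Values within 0.01 of a whole read made up 83.7% to 88.2% of values above 0, so no count test was run. Calls required a 2-fold difference and a norm value of 100 in 1 library, following the fold and value thresholds of the study without its p step, and log2 ratios used a pseudocount of 1. The rule for calls was also run on simulated counts with planted folds and counting error only. That simulation left out variation between mice and preparations, so it cannot show how reliable the calls are here. No model over all 4 libraries was run. The members, lists and thresholds were chosen with earlier results of these data known. Named miRNAs were the members, other entries named miR-181, the 5 nearest profiles and the 2 markers of highest mean level in each list, some given only in their list's sum. Also named were miR-223-3p and the 3p strand of miR-142a, chosen after their values were seen. Computations used scipy 1.17.1, pandas 2.3.3 and numpy 2.4.6 under Python 3.11.15, and plots matplotlib 3.10.9. Sequences and positions came from RefSeq (GRCm38.p6) and GENCODE (GRCm38).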

Additional observations from a re-analysis of the deposited data

Results flagged for a closer look

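The direction of the diet ratio was opposite in vWAT-Exos (higher on HFD) and BAT-Exos (lower on HFD) for 5 members. Of the 320 mouse sequences at 100 or more in a library, 23.8% had the same directions. With 1 library per condition the difference was not tested. The log2 diet ratio of vWAT-Exos exceeded that of BAT-Exos by 1.58 for miR-181a-5p, 1.86 for miR-181b-5p, 1.21 for miR-181d-5p, 4.06 for miR-181a-1-3p and 0.85 for miR-181c-3p. miR-181c-3p was below a norm value of 100 in every library, and its interval in vWAT-Exos included no difference. Its ratio in vWAT-Exos was 0.09 as deposited and -0.05 on scaling to library totals, so its directions then no longer differed.

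Entries outside the 7 members also held miR-181 signal above what 3 reads are worth. miR-181b-1-3p, the passenger strand of Mir181b-1, was listed at 13.6 (about 10 reads) in LFD vWAT-Exos and at 0 in the other 3 libraries, where 3 reads are worth 7.11 (vWAT-Exos on HFD), 2.48 (BAT-Exos on LFD) and 2.12 (BAT-Exos on HFD). miR-181b-2-3p was listed at 0 throughout. Another pair of entries with the seed of miR-181a-5p, 26 bases long, carried an opossum name and had equal values: in vWAT-Exos 49.7 on LFD and 66.4 on HFD, and in BAT-Exos 9.90 on LFD and 3.53 on HFD. The order of the libraries was that of miR-181a-5p.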

How the results depend on the processing

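With 1 library per condition, no replicate could be left out and no paired analysis was possible because each condition has a single library. Scaling to library totals gave log2 ratios of the summed guide strands of 0.52 for diet in vWAT-Exos, 2.18 for depot on LFD and 3.66 for depot on HFD. The difference of diet ratios between depots was then 1.48. In the depot comparison on LFD that scaling called 5 members, all higher in vWAT-Exos, against 168 of 322 mouse sequences called higher. Median-of-ratios scaling gave 0.71 for diet in vWAT-Exos and 2.69 for depot on HFD. For diet in vWAT-Exos it called 1 member higher, against 18 of 281 mouse sequences. A fold threshold of 1.5 called 3 members in vWAT-Exos (all higher), against 48 of 283 mouse sequences called higher. In BAT-Exos it called 4 members (all lower), against 61 of 283 called lower. A norm value floor of 10 called 3 members in BAT-Exos (all lower), against 83 of 456 mouse sequences called lower. A pseudocount of 10 lowered the log2 strand ratio of miR-181a in HFD BAT-Exos to 6.44. The other values of these results stayed within their counting interval or within 1.5 times the count. Of the 28 log2 ratios of single members, 13 left their counting interval on scaling to library totals, 2 under median-of-ratios scaling and 2 with a pseudocount of 10. On scaling to library totals 1 of the 28 changed sign (miR-181c-3p, diet in vWAT-Exos), and 0 did under median-of-ratios scaling or a pseudocount of 10. Taking only the highest sequence of a name changed nothing, as each member is listed with 1 sequence. Values under about 20 reads, those of miR-181a-2-3p and of miR-181a-1-3p in HFD BAT-Exos, are limited by depth. Over all mouse sequences the counts of higher and lower calls, with the rule used above, were 16 and 13 for diet in vWAT-Exos, 21 and 35 for diet in BAT-Exos, 71 and 89 for depot on LFD and 94 and 99 for depot on HFD. With a floor of 10 they were 40 and 71, 53 and 83, 132 and 146, and 158 and 172. When both libraries had to reach 100 they were 9 and 7, 14 and 19, 45 and 57, and 55 and 65, and with a fold threshold of 1.5 they were 48 and 42, 54 and 61, 103 and 115, and 112 and 126. Scaling to library totals gave 13 and 27, 17 and 36, 168 and 39, and 149 and 61, and median-of-ratios scaling gave 18 and 9 for diet in vWAT-Exos.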
